A study of Arabidopsis thaliana with 4 samples.

Results

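C4H, CYP98A3, HCT and CSE encode the hydroxylation and shikimate-ester enzymes of phenylpropanoid synthesis in Arabidopsis thaliana. All 4 genes, taken by locus identifier (AT2G30490, AT2G40890, AT5G48930 and AT1G52760) from 27444 nuclear protein-coding genes, had a peak of the R2R3 MYB transcription factor MYB67 assigned to them by the authors, with 5 of the 5390 peaks in the list. Across the nuclear protein-coding genes, 4030 (14.7%) had an assigned peak. The data came from DNA affinity purification sequencing (DAP-seq), in which a tagged transcription factor made in a cell-free extract captures fragments of naked genomic DNA, so that neither chromatin nor gene expression is measured. The labels list 2 libraries with Halo-tagged MYB67 and 2 with the Halo tag alone (empty vector), all from adapter-ligated DNA of Col-0. The protocol names leaf as the source of this DNA and the tissue label names root.

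Every value below belongs to 1 deposited peak list, and no value belongs to a single library. Fold enrichment is the authors' ratio of signal to the background modelled by the peak caller. The −log10 q measures how unlikely the peak is under that background after the peak caller's correction for multiple testing. Neither carries a replicate error, and library depth is unknown, so no difference between these genes was tested and their order is a description of this list. Which neighbours in that order would differ beyond the spread between libraries cannot be told. The authors' rule for naming the gene of a peak is not stated in the labels or files.

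In phenylpropanoid synthesis, phenylalanine is turned into cinnamate by ammonia lyases (PAL). C4H, an endoplasmic reticulum cytochrome P450, hydroxylates cinnamate to p-coumarate, which 4-coumarate-CoA ligases (4CL) activate. HCT passes the coumaroyl group to shikimate, the cytochrome P450 CYP98A3 (C3'H) hydroxylates the ester, and CSE (also named LysoPL2) releases caffeate from caffeoyl shikimate. The products feed lignin, and also the ferulate and other phenolics found in the suberised walls of root barrier tissues such as endodermis and phellem.

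The motif found by the authors in the MYB67 peaks reads as a form of the AC elements, the A- and C-rich sites long known from promoters of phenylpropanoid genes. Position 7 of its 10 positions was T in 68.9% and A in 30.4%, and position 9 was C in 53.2% and A in 46.1%. The forms below take the most frequent base of the deposited matrix at every other position, and capitals mark positions 4 to 10, the span of an AC element. They are shown as examples of high-scoring matches to the matrix by which the sites at the 4 genes were found. They are not the only ones. At position 3, T (47.8%) was nearly as frequent as C (50.2%), so a form with T there scores almost the same. A counted site may match the matrix less well than these forms.
AC-I form: tccACCTACC
AC-III form: tccACCTAAC
AC-II form: tccACCAACC
Form with A at positions 7 and 9: tccACCAAAC
Scored as the summed natural log of each base's share over an equal share of all bases, these forms reached 10.3, 10.2, 9.52 and 9.38 in the order listed. The threshold in the motif's header is 7.04, so each lay above it. FIMO, the scan whose sites the authors deposited, gives each site a q, and a lower q marks a closer match. The deposited sites carry the coordinates of the whole peak, so a site could be counted but not read or placed, and which form stands in which peak was not analysed here.

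C4H had the highest fold of the 4 genes, in a single peak. This peak, at chr2:12995681-12996173 in TAIR10, had a fold of 18.2, a −log10 q of 89.2, a width of 493 bp and its summit at base 12995895. By fold C4H ranked 7 among the 4030 assigned nuclear genes, above 99.8% of them, and by −log10 q it ranked 10. The median over those genes was a fold of 4.47, with quartiles of 3.78 and 5.66. The peak held 9 FIMO sites, with q values of 0.00739, 0.00795, 0.0098, 0.0164, 0.026, 0.0267, 0.0305, 0.0381 and 0.0436. Only 18 of 5338 nuclear peaks (0.337%) held 9 or more sites.

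CSE, the esterase, was second by fold and first by −log10 q among the 4 genes. Its peak at chr1:19650185-19650798 had a fold of 15.6, a −log10 q of 113 and a width of 614 bp, with the summit at base 19650590. Over all assigned nuclear genes CSE ranked 15 by fold and 2 by −log10 q, so the order of C4H and CSE depends on the measure. The CSE peak held 11 sites, and 8 nuclear peaks (0.150%) held as many or more. Its closest site had a q of 0.00462, the second lowest of 314 distinct values in the site list, whose lowest was 0.00443. The 3 next closest had q values of 0.00564, 0.00564 and 0.00739, and the other 7 ran between 0.0141 and 0.0463. One of the 11 entries repeats another in peak and q, which leaves 10 if repeats are counted once.

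CYP98A3 was the only one of the 4 genes with more than 1 peak. The stronger, at chr2:17062037-17062341, had a fold of 9.74, a −log10 q of 45.6, a width of 305 bp and its summit at base 17062189. The weaker, at chr2:17060581-17060933, had a fold of 5.68, a −log10 q of 13.2 and a width of 353 bp, with the summit at base 17060739. The peaks were separated by 1103 bp and their summits by 1450 bp. Of the 4030 assigned nuclear genes, 365 (9.06%) had 2 or more peaks. By its stronger peak CYP98A3 ranked 137 by fold, above 96.6% of assigned genes, and 87 by −log10 q. The stronger peak held 4 sites, with q values of 0.00527, 0.0098, 0.0209 and 0.0366, and the weaker held 3, with 0.00739, 0.0098 and 0.0104. The wider of the 2 peaks was thus the weaker one and held fewer sites.

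HCT, the acyltransferase, had the lowest value of the 4. Its single peak at chr5:19838146-19838408 had a fold of 5.80, a −log10 q of 15.9 and a width of 263 bp. HCT ranked 919 by fold, above 77.2% of assigned genes, and 821 by −log10 q. The fold of C4H was 3.13 times and that of CSE 2.69 times the fold of HCT. The summit lay at base 19838221, 75 bp from the start of the peak, or 28.5% of its width, against 43.4% at C4H, 44.8% and 49.8% at the weaker and stronger CYP98A3 peaks and 66.0% at CSE. The start is the lower coordinate and gene strand was not used, so these shares have no direction relative to the genes. The HCT peak held 3 sites, with q values of 0.00564, 0.0094 and 0.0467. Its closest site had a lower q than any site in the C4H peak.

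**Figure D1:**
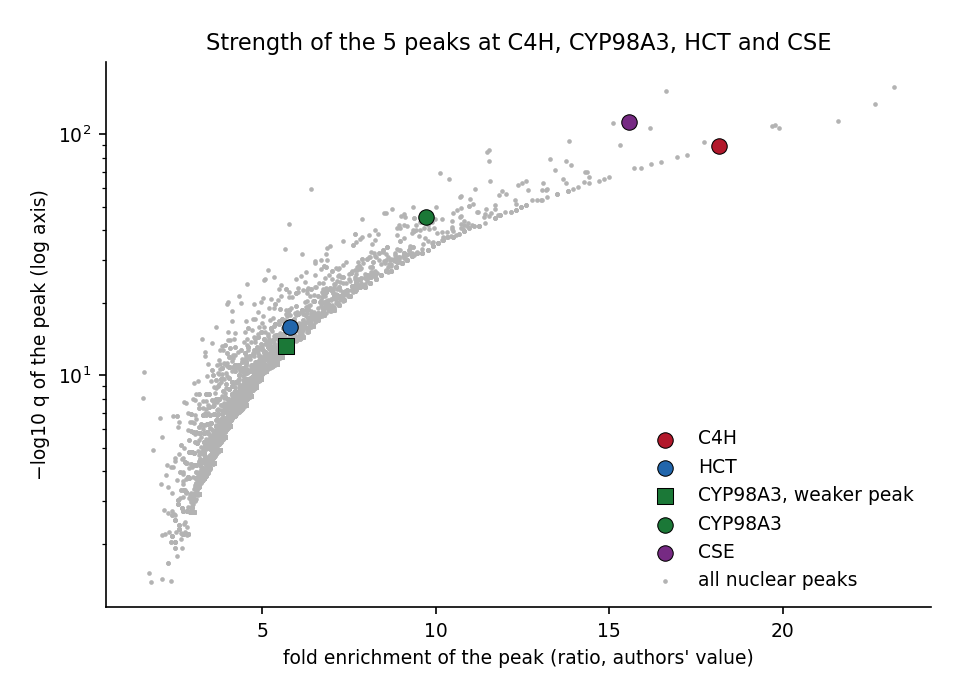
Fold enrichment (x axis, ratio) and −log10 q (y axis, log scale) of each nuclear MYB67 peak, in grey, with the 5 peaks at the 4 genes in colour and the weaker CYP98A3 peak as a square. CSE lies left of C4H (fold 15.6 against 18.2) and above it (−log10 q 113 against 89.2), while HCT and the weaker CYP98A3 peak lie close together at folds of 5.80 and 5.68.

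All 5 peaks held at least 2 sites of q up to 0.01. There were 4 such sites at CSE, 3 at C4H and 2 in each other peak. Across the 5338 nuclear peaks, 336 (6.29%) held at least 2 sites of q up to 0.01 and 2536 (47.5%) held at least 1. Of the 13 peaks at the other genes of the phenylpropanoid and lignin list described below, 6 held at least 2. All 3 peaks at the listed genes related to the P450 steps, also described below, held at least 2. The count of at least 2 was chosen after the values were seen. Close matches were therefore present at every one of the 4 genes, whereas the number of sites of any q differed between 3 and 11. The motif was itself found in the MYB67 peaks, so these matches are not evidence independent of the peak list.

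**Figure D2:**
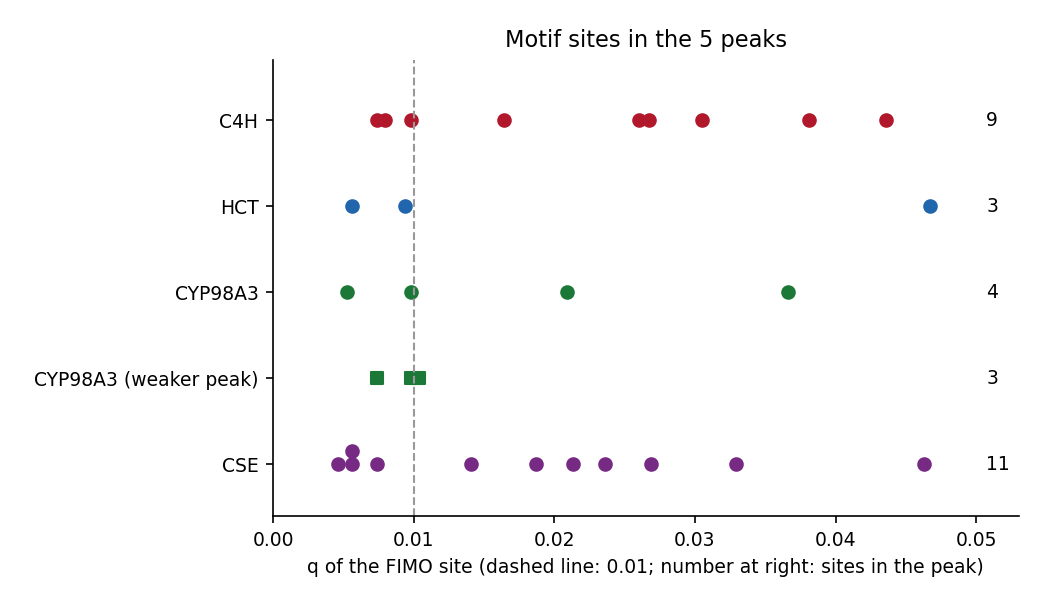
The q of each FIMO site (x axis) in the 5 peaks (rows), with the number of sites at the right and a dashed line at a q of 0.01. Each peak has at least 2 sites left of the line, and C4H and CSE add 6 and 7 sites to its right.

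The 2 peaks with the most sites were also the widest of the 5. The C4H and CSE peaks were wider than 98.0% and 99.5% of nuclear peaks, and wide peaks hold more sequence in which a site can be found. Set beside the 200 nuclear peaks nearest in width, which have a median of 4 sites for both genes, C4H with 9 sites lay above 99% and CSE with 11 above 98.0%. These neighbours spanned 422 to 562 bp for C4H and 437 to 788 bp for CSE. Most of those for CSE were narrower than its peak, so its width was matched only loosely. The stronger CYP98A3 peak with 4 sites lay above 86.5% of its 200 neighbours in width (median 2), and HCT with 3 sites above 66.5% (median 2). The weaker CYP98A3 peak with 3 sites lay above 35.0% (median 3). Beside the 200 nuclear peaks nearest in fold, C4H lay above 97% and CSE above 97.5% by number of sites. The folds of these neighbours reached down to 9.47 for both genes, a loose match. In the same comparison the stronger CYP98A3 peak lay above 59.5%, the weaker above 62.5% and HCT above 61.5%. Per 100 bp, the densities were 1.83 sites at C4H, 1.79 at CSE, 1.31 and 0.850 at the stronger and weaker CYP98A3 peaks and 1.14 at HCT, against a median of 0.823 over nuclear peaks.

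The fold of the strongest peaks was also above that of most peaks nearest in width, a set mostly narrower than the peak at CSE. Among the same 200 neighbours in width, C4H lay above 98.5% by fold, CSE above 95%, the stronger CYP98A3 peak above 98.0% and HCT above 82.5%. The median folds of these neighbours were 5.72, 5.83, 5.70 and 4.80 in the same order. The weaker CYP98A3 peak, with 5.68 against a median of 6.33, lay above 40.5% and so near the middle of peaks of its width.

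**Figure D3:**
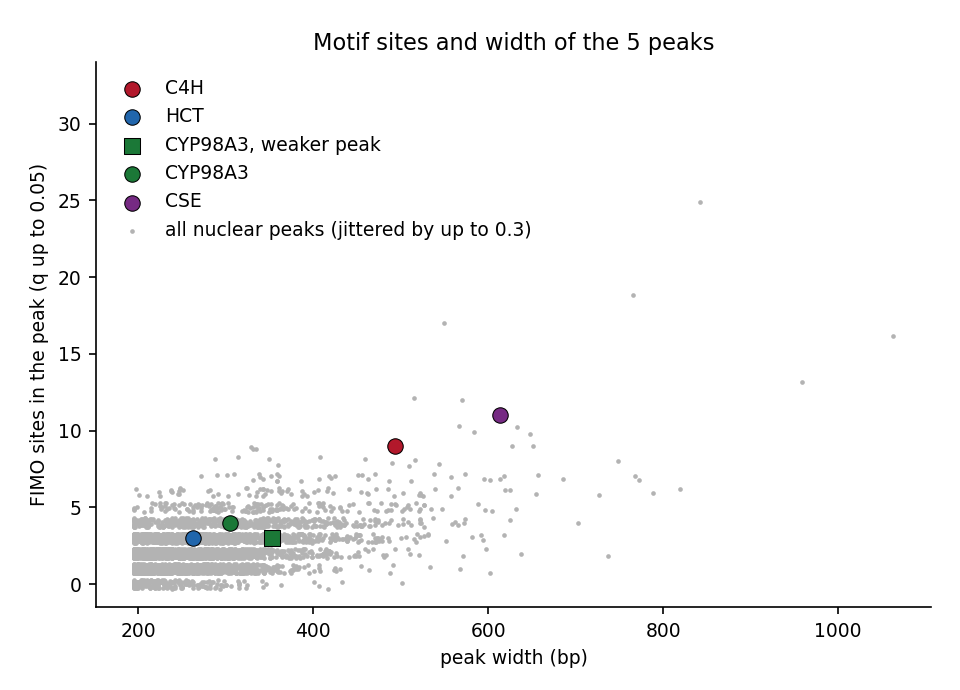
Number of FIMO sites (y axis, q up to 0.05) and width in bp (x axis) of each nuclear peak, in grey, with the 5 peaks at the 4 genes in colour. C4H (493 bp, 9 sites) and CSE (614 bp, 11 sites) stand above most peaks of like width, and HCT and both CYP98A3 peaks lie within the main body.

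The remaining genes of the pathway show where these enzymes stand within it. Of the 24 genes of a phenylpropanoid and lignin list, 13 had a peak, and 9 of the 20 outside the 4 described here, beside 14.7% of all nuclear protein-coding genes. The median fold of the strongest peaks was 12.7 over the 4 genes, 5.22 over these 9 and 4.47 over all assigned genes. Up to the release of caffeate, that is PAL, C4H, 4CL, HCT, CYP98A3 and CSE, 10 of 12 genes had a peak. After it 3 of 12 did, a count that is not low beside the 14.7% of all nuclear protein-coding genes. The division of the list at caffeate was made after the values were seen. Each gene has a single place in the list and 4CL stands before HCT, so a 4CL step on caffeate is not counted after it.

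Upstream of HCT, the ammonia lyase and ligase genes had folds on both sides of those of HCT and CYP98A3. 4CL1 had a fold of 12.3 with 5 sites, and 4CL5 7.68 with 4. The 4CL3 gene, which acts in flavonoid rather than lignin synthesis, had 3.41. PAL4 had peaks of 11.5 and 3.93, PAL2 of 8.97, 5.51 and 3.37, and PAL1 of 5.22 and 3.68. Each of these lay below C4H and CSE. No peak was assigned to PAL3 or 4CL2.

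At the genes that the list places after CSE, a set without 4CL, the values were lower than at any of the 4 genes. CCR1, which reduces feruloyl-CoA to the aldehyde, had a fold of 4.73. CAD4, which reduces the aldehyde to the alcohol, had 4.23, and the methyltransferase gene COMT1 had 3.87. CYP84A1, the other ring hydroxylase P450 of the pathway, had no assigned peak, nor had CCoAOMT1, CCR2, CAD5, the laccase genes LAC4, LAC11 and LAC17 or the peroxidase genes PER64 and PER72. At −log10 q of at least 10, which 6.07% of nuclear protein-coding genes reached, all 4 genes and 10 of the 24 in the list kept a peak. All 4 also kept one among the upper 50% of peaks by fold, to which 7.81% of nuclear protein-coding genes had an assigned peak, among peaks with a site (14.2%) and among peaks with a site of q up to 0.01 (7.63%).

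**Figure D4:**
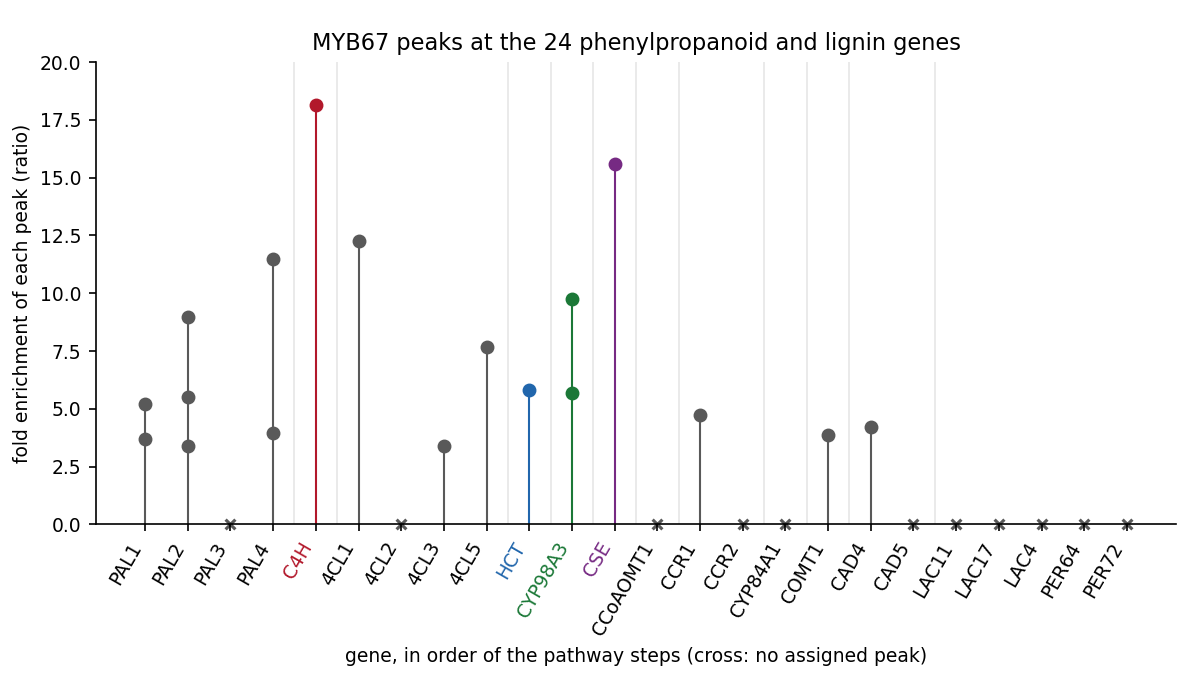
Fold enrichment (y axis, ratio) of each assigned peak at the 24 genes of the list, ordered by pathway step (x axis), with C4H, HCT, CYP98A3 and CSE in colour and a cross for a gene with no assigned peak. C4H (18.2) and CSE (15.6) are the highest, and after CSE the highest value is 4.73 at CCR1.

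A list of 10 genes related to the P450 steps, made up of electron carriers, scaffold proteins and 1 alternative hydroxylase, had peaks in 3 cases, beside 14.7% of all nuclear protein-coding genes. CB5-B, a cytochrome b5 isoform and thus a small electron carrier of the endoplasmic reticulum, had a fold of 21.6, a −log10 q of 114 and 10 sites, the highest fold of all assigned genes. CB5-C had 5.55 with 3 sites. ATR2, a P450 reductase gene that supplies electrons to enzymes such as C4H, had 3.93 with 5 sites. No peak was assigned to the reductase gene ATR1, to CB5-A, CB5-D or CB5-E, to MSBP1 or MSBP2, which encode scaffold proteins that hold the P450 enzymes of lignin synthesis, or to APX1, the alternative hydroxylase, whose product can hydroxylate free coumarate. The close relatives CYP98A8, CYP98A9 and SHT, which act in pollen phenolamide synthesis rather than in lignin, had none either, and with 3 genes this count cannot be told from the share over all genes.

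The 2 P450 genes lie on the same chromosome, 4.07 Mb apart. Next to C4H, both neighbouring protein-coding genes had a peak of their own, with a fold of 6.85 at AT2G30480 and 3.58 at NET4B (AT2G30500), a gene for an actin-binding protein. The NET4B peak was 1.82 kb from that of C4H, centre to centre, and had 5 sites. The immediate neighbours of CYP98A3 (CYSA and UMAMIT11), of HCT (TED7 and AT5G48940) and of CSE (AT1G52750 and AT1G52770) had no assigned peak. Within 30 kb on either side there were 3 other peaks around C4H, 3 around CYP98A3, 3 around HCT and 4 around CSE. These counts leave out the weaker CYP98A3 peak. The median over assigned nuclear peaks was 3 (quartiles 2 and 4), which does count further peaks of the same gene. The other peaks, again without the weaker CYP98A3 peak, reached a fold of 6.85 near C4H, 5.27 near CYP98A3 and 5.66 near CSE. Near HCT they reached 11.9, at the peak of AT5G48880 (KAT5, a peroxisomal thiolase gene), which is above the fold of HCT itself.

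**Figure D5:**
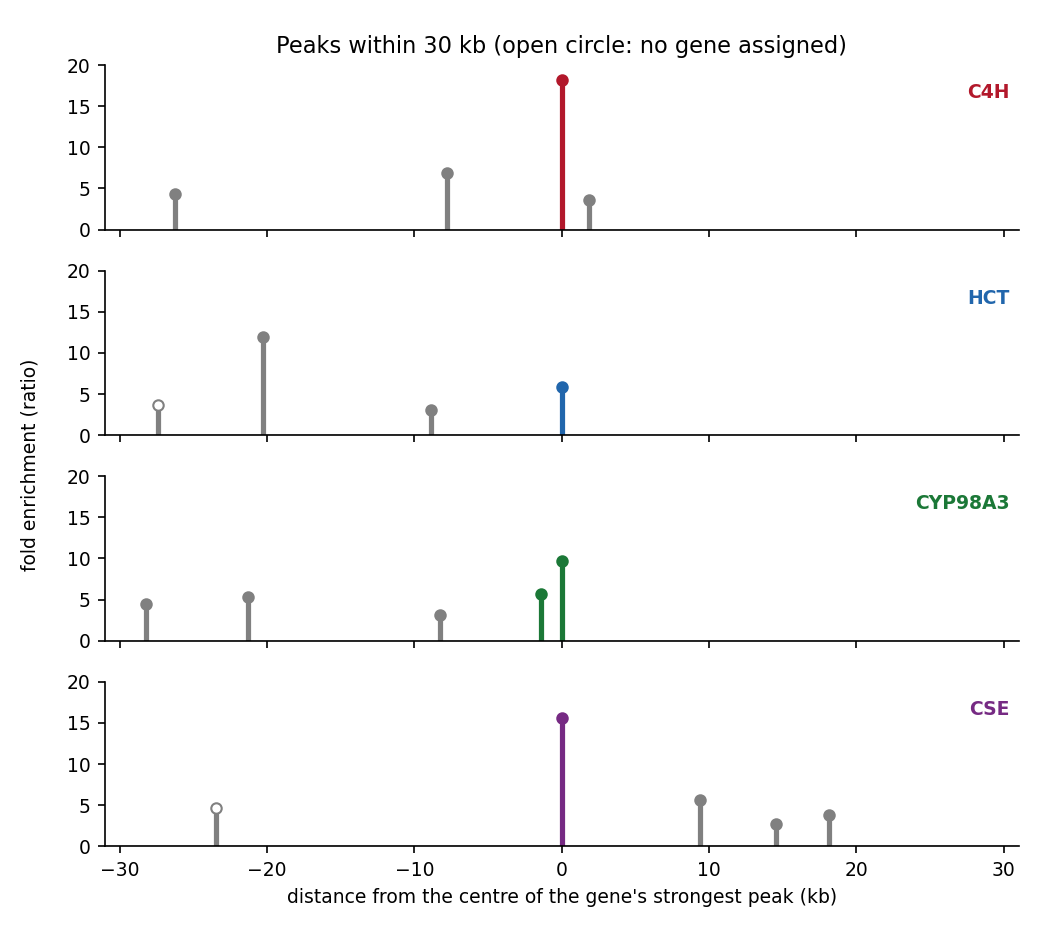
Peaks within 30 kb of the centre of the strongest peak of each gene (x axis, kb), with fold enrichment (y axis, ratio). The gene's own peaks are coloured, others are grey, and an open circle marks a peak with no assigned gene. The own peak is the highest at C4H, CYP98A3 and CSE, whereas at HCT a peak 20.3 kb away is higher (11.9 against 5.80).

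The genes most like each of the 4 were found by distance over the percentiles of fold, width and number of sites of the strongest peak, among 4014 assigned nuclear genes outside the lists. CSE was closest to AT3G22125 (fold 13.8, 570 bp, 12 sites) and to CWLP, a cell wall linker protein gene (fold 19.9, 766 bp, 19 sites). C4H was also closest to AT3G22125 and then to FdC1, a ferredoxin-like gene (fold 15.7, 492 bp, 6 sites). CYP98A3 was closest to cpHsc70-2, a plastid chaperone gene (fold 8.84, 302 bp, 4 sites), and to AT5G16920 (fold 9.62, 314 bp, 4 sites). HCT was closest to AT4G11270 (fold 5.72, 261 bp, 3 sites) and AT1G54610 (fold 5.68, 264 bp, 3 sites).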

How the data were processed

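Per the submitters' processing notes, which give no order or settings, the tools included MACS3 3.0.0a7, STAR 2.7.10a, Trimmomatic 0.39, Picard 2.27.1, bedtools and HOMER, with build TAIR10. The labels do not say how libraries were combined. The authors' deposited peak list gives a fold (a ratio), a −log10 q, a display score (not used) and a summit per peak. The authors' deposited gene table repeats the fold, gives the q-value and names at most 1 gene per peak. The deposited site list gives a q-value per FIMO site up to 0.05, and the deposited motif matrix a fraction per base and position.

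Ranks, percentiles, site counts and the 200 peaks nearest in width or fold were computed with pandas 2.3.3 in Python 3.11.15, and tested on simulated data. Positions are counted from 1. Symbols and gene order came from a RefSeq table of TAIR10.1, in which all 24 pathway, 10 partner and 3 relative genes matched. Its coordinates were not set against the peaks, so no peak is placed in an exon, intron or untranslated region. Genes named are the 4, every gene of these lists, and the 2 most similar genes each. Others were chosen after their values were seen. The 4 genes and the lists were chosen with earlier results of these data known. No comparison between libraries or test was possible. Alternatives were a −log10 q of at least 10, the upper 50% of peaks by fold, peaks with a site, sites of q up to 0.01, −log10 q as the measure, peaks of like width and repeated sites counted once.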

Additional observations from a re-analysis of the deposited data

How the results depend on the processing

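All 4 genes kept an assigned peak in each of 4 alternatives. The list of 24 kept 13 with a site required and 11 with a site of q up to 0.01, beside 14.2% and 7.63% of nuclear protein-coding genes. It kept 10 at −log10 q of at least 10 and 10 among the upper 50% of peaks by fold, beside 6.07% and 7.81%. By −log10 q in place of fold, the percentile among assigned genes was 79.6 for HCT, 97.8 for CYP98A3 and 99.95 for CSE. Among the 200 peaks nearest in width it was 98.5 for C4H, 82.5 for HCT, 98.0 for CYP98A3 and 95 for CSE. At CSE most of these peaks were narrower than its own. With sites of q up to 0.01 alone, C4H kept 3, CYP98A3 2 and CSE 4. In 14 of 24 comparisons the value stayed within the margin set for it, which was 1.5 times for counts and the 95% Wilson interval for percentiles. Neither margin measures the spread between libraries, so this count does not show how stable the results would be over replicates.

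No paired analysis was possible because no column holds a value of a single library, and for the same reason leaving out a replicate was not run. Motif matches in promoter windows, and the stricter matrix score for them, were not run, as no promoter sequence was used here. Without values per library, depth and the share of the empty-vector signal in each fold are unknown.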

Other observations

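Nuclear peaks with at least 4 sites of q up to 0.01, a count chosen after the values were seen, numbered 9. They were the peaks at CB5-B (fold 21.6), CWLP (19.9), AT5G27770 (16.2), CSE (15.6), AT3G22125 (13.8) and AT4G22505 (12.5), 2 peaks at AT4G22475 (13.1 and 10.8), and a peak with no assigned gene at chr2:4684747-4685085 (15.3). Their median fold was 15.3, against 4.38 over all nuclear peaks. They were 339 to 1063 bp wide, against a median of 257 bp, and this contrast in fold was not matched for width. The peaks at AT4G22475 and AT4G22505 lay close together on chromosome 4, between bases 11844605 and 11852729. Those at CWLP and AT3G22125 lay between bases 7795481 and 7808012 of chromosome 3, so the 9 peaks do not stand for 9 separate loci. The CB5-B and CSE peaks had folds of 21.6 and 15.6, widths of 633 and 614 bp, 10 and 11 sites, 4 sites each of q up to 0.01 and −log10 q of 114 and 113. At AT5G27770 all 4 sites of the peak had a q up to 0.01, while at AT4G22475 the stronger peak had 6 of 25.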
